A study of Mus musculus with 2 samples.

Results

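The genes described here are 9 that link glucose to the electrical activity of the insulin-producing beta cell, or that tune it: the glucose transporter gene Slc2a2, the potassium channel genes Kcnj11 and Abcc8, the calcium channel genes Cacna1d and Cacna1a, the cation channel gene Trpm5, the receptor genes Glp1r and Prlr, and the peptide gene Ucn3. They were taken by gene symbol, and all 9 were found among the 32285 genes counted. The data are single-cell RNA counts from pancreatic islets of NOD mice, in which immune cells invade the islets and diabetes follows. Mice were 5 weeks old at the start and were fed for 5 weeks with HAMSAB, known in the field as a maize starch rich in amylose that carries acetyl and butyrate groups, or with HAMS, the same starch without them. There was 1 library per diet, and the number of mice pooled in each is not stated in the labels. A level and its difference between the libraries are therefore given with intervals for counting error only, no test of the diets was possible, and "higher" and "lower" refer to these 2 libraries.

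In a beta cell, glucose enters through the facilitative transporter GLUT2, the product of Slc2a2, and its metabolism raises ATP, which closes the KATP channel made of Kir6.2 (Kcnj11) and its sulfonylurea receptor SUR1 (Abcc8). The membrane depolarises, voltage-gated calcium channels open, among them the L-type pore subunit CaV1.3 (Cacna1d) and the P/Q-type pore subunit CaV2.1 (Cacna1a), and calcium drives insulin granules to fuse. The calcium-activated cation channel TRPM5 adds depolarising current, the incretin receptor GLP-1R (Glp1r) raises cAMP and amplifies secretion, the prolactin receptor (Prlr) signals through JAK2 and STAT5 and is known for beta cell growth in pregnancy, and urocortin 3 (Ucn3) is a peptide of mature mouse beta cells that acts on neighbouring delta cells.

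Kcnj11 and Abcc8, whose products form 1 channel, are neighbours on mouse chromosome 7 in GRCm38, on the same strand and 3758 bases apart: Kcnj11 lies at chr7:46093953-46100764 and Abcc8 at chr7:46104523-46180033 in the GENCODE annotation. There Glp1r lies at chr17:30901817-30940791, Cacna1d at chr14:30039939-30491455 and Cacna1a at chr8:84388440-84640246. Among the endocrine classes 5 of the genes were highest in beta-like cells in both libraries. Of these, 4 are shown with the 250 bases before their first annotated start, as a reference for that pattern. The sequences are from RefSeq (GRCm38.p6) and run 5′ to 3′ on the strand of the gene. Capitals mark TAAT on either strand, the core letters recognised by homeodomain factors such as PDX1 and NKX6-1.
Slc2a2 (chr3:28697653-28697902, forward strand): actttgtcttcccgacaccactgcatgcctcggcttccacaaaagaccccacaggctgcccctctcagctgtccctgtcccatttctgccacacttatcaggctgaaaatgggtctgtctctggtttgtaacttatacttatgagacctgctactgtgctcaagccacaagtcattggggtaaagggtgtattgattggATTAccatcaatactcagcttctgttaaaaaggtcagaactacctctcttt
Prlr (chr15:10176988-10177237, forward strand): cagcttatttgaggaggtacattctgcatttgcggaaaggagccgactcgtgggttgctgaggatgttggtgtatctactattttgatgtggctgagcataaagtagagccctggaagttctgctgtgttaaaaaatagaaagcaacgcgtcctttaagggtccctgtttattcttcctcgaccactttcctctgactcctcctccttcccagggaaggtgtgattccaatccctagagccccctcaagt
Trpm5 (chr7:143094643-143094892, reverse strand): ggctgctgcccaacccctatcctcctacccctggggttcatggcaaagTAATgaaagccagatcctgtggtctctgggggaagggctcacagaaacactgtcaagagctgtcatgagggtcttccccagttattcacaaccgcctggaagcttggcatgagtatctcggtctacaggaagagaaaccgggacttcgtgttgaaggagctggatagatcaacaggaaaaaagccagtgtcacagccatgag
Ucn3 (chr13:3945350-3945599, reverse strand): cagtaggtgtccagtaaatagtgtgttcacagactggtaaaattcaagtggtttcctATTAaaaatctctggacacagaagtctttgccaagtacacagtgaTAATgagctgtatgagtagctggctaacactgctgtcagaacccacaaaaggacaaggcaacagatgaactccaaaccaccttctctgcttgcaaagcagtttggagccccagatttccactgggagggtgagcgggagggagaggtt
TAAT occurred 1 time before Slc2a2, 0 times before Prlr, 1 time before Trpm5 and 2 times before Ucn3. It is a short motif, found in 54.9% of the 32851 RefSeq windows of this length, so a match is common and says nothing of a factor. Promoter windows were found for 6 of the 9 genes, and Prlr has 3 annotated starts, of which the first is shown. Glp1r is not shown because its RefSeq and GENCODE starts differ. Which start islet cells used cannot be read from 3′ counts.

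Depth was shallow. Kept cells held a median of 705 UMIs (unique molecules counted) in the HAMSAB library of 4628 cells and 704 UMIs in the HAMS library of 4185 cells, and 6 barcode sequences occurred in both libraries. Cells were grouped by clustering with the 9 genes left out, and clusters were named from marker genes. Beta-like cells numbered 783 in HAMSAB and 1529 in HAMS. There were 319 alpha-like cells in HAMSAB and 496 in HAMS, and 343 delta-like cells in HAMSAB and 408 in HAMS. All 10 beta markers were detected in beta-like cells of both libraries, with a summed level of 144200 CPM (UMIs per 1000000 UMIs of the class) in HAMSAB and 114900 CPM in HAMS. Markers of other islet cells were also present in beta-like cells and at unequal levels. The alpha markers, 7 of 9 detected in HAMSAB and 9 of 9 in HAMS, summed to 2025 CPM in HAMSAB and 5118 CPM in HAMS. The delta markers, 4 of 6 detected in HAMSAB and 5 of 6 in HAMS, summed to 928.5 CPM in HAMSAB and 6683 CPM in HAMS. Levels are given as CPM of all UMIs in a class, and only levels of the same gene are compared.

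Of the 9 genes Slc2a2, Prlr, Glp1r, Trpm5 and Ucn3 were highest in beta-like cells in both libraries. Apart from Glp1r in delta-like cells (5 UMIs in HAMSAB and 11 in HAMS), they were close to undetected in alpha-like and delta-like cells. The other 4, which encode the KATP and calcium channel subunits, were counted in all 3 endocrine classes, with Abcc8 highest in delta-like cells.

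**Figure D1:**
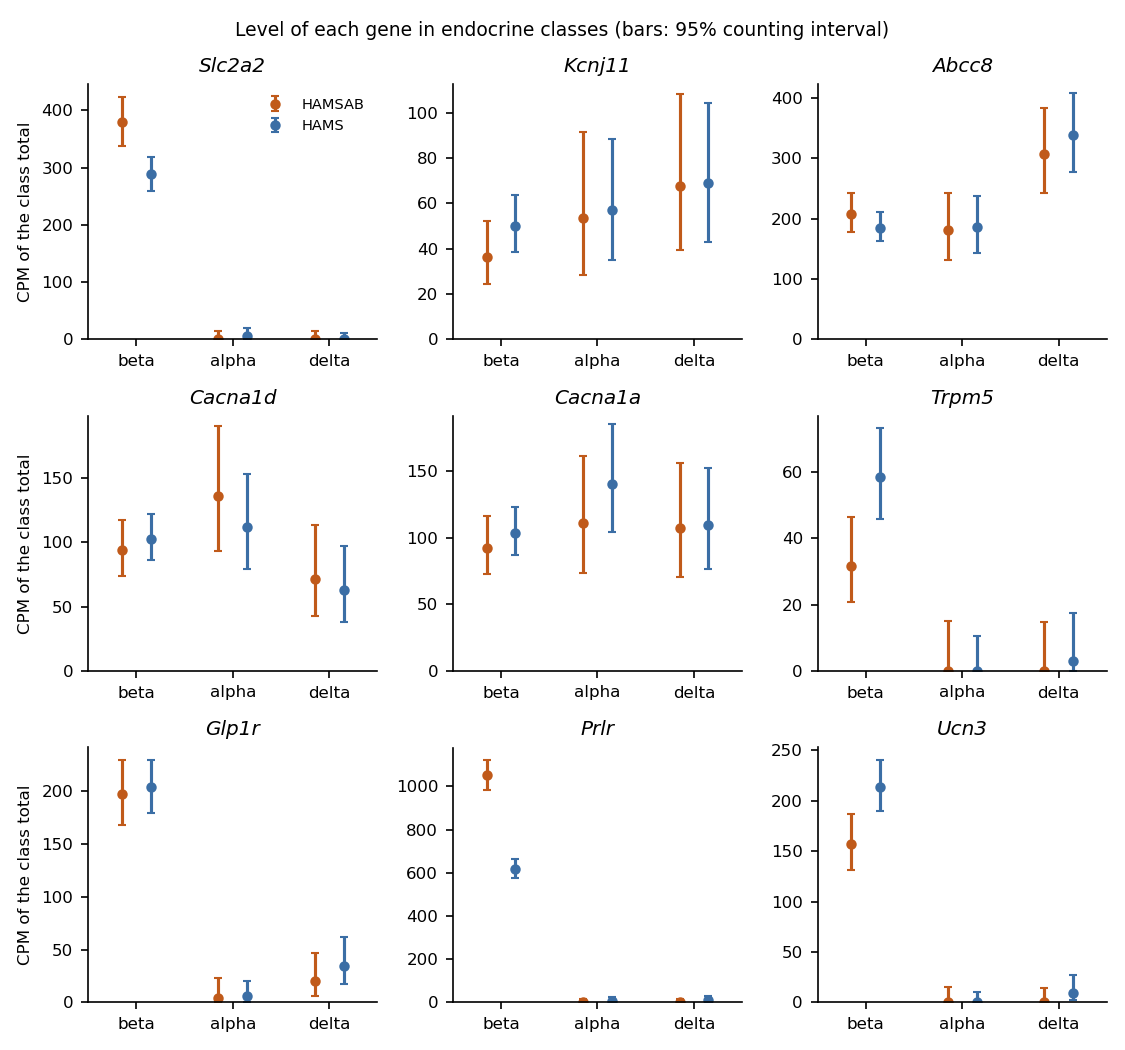
Level of each of the 9 genes (CPM of all UMIs in the class, linear axes from 0, a separate scale per gene) in beta-like, alpha-like and also delta-like cells of the HAMSAB library (orange, left) and the HAMS library (blue, right). Points are 1 library each and bars are exact 95% Poisson intervals for counting error. Slc2a2, Trpm5, Glp1r, Prlr and Ucn3 stand well above 0 in beta-like cells alone, with 0 to 11 UMIs in any alpha-like or delta-like group, while Kcnj11, Abcc8, Cacna1d and Cacna1a stand above 0 in every class.

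Slc2a2 was at 379.7 CPM in HAMSAB beta-like cells (312 UMIs, interval 338.7 to 424.2) and at 288.6 CPM in HAMS beta-like cells (371 UMIs, 260.0 to 319.5). In alpha-like cells it had 0 UMIs in HAMSAB and 2 UMIs in HAMS, and in delta-like cells it had 0 UMIs in both. Taking the floor of 3 counts per library for a class at 0, its HAMSAB level was at least 30.8-fold higher in beta-like than in alpha-like cells. At this depth, Slc2a2 was thus a gene of beta-like cells among the islet endocrine classes.

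Prlr had 864 UMIs in HAMSAB beta-like cells, or 1051 CPM (982.5 to 1124), and 794 UMIs in HAMS beta-like cells, or 617.6 CPM (575.4 to 662.1). Alpha-like cells held 0 UMIs of Prlr in HAMSAB and 3 UMIs in HAMS, and delta-like cells likewise held 0 UMIs in HAMSAB and 3 UMIs in HAMS. Against the same floor of 3 counts, the HAMSAB level in beta-like cells was at least 85.3-fold that in alpha-like cells, and in HAMS the ratio was 71.9 (interval 24.5 to 349.5). Prolactin receptor RNA was thus counted almost wholly in the beta-like class of both libraries.

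Glp1r was at 197.1 CPM in HAMSAB beta-like cells (168.0 to 230.0) and 203.8 CPM in HAMS beta-like cells (179.9 to 230.0), and it was the one gene of these 5 with more than 3 UMIs in another endocrine class. Delta-like cells held 5 UMIs in HAMSAB, or 19.9 CPM, and 11 UMIs in HAMS, or 34.4 CPM. Beta-like cells stood above delta-like cells 9.92-fold in HAMSAB (4.17 to 31.0) and 5.92-fold in HAMS (3.26 to 12.0). In B, T, macrophage and plasma cells as 1 group, which should lack the islet genes, Glp1r was at 3.94 CPM in HAMSAB and 1.12 CPM in HAMS, so the delta-like values lay above that background, with counting intervals that overlap it in HAMSAB (6.45 to 46.4 CPM in delta-like and 1.58 to 8.12 CPM in immune cells).

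Ucn3 was at 157.0 CPM in HAMSAB beta-like cells (131.1 to 186.5) and 213.9 CPM in HAMS beta-like cells (189.4 to 240.7). No UMI of Ucn3 was counted in alpha-like cells of either library, and delta-like cells held 0 UMIs in HAMSAB and 3 UMIs in HAMS. Trpm5, with the fewest UMIs of the 5, had 26 UMIs in HAMSAB beta-like cells, or 31.6 CPM (20.7 to 46.4), and 75 UMIs in HAMS beta-like cells, or 58.3 CPM (45.9 to 73.1). In alpha-like cells Trpm5 had no UMI, and 1 was counted in delta-like cells, in HAMS. These counts of 0 allow a level of up to 12.3 CPM in HAMSAB alpha-like cells and 8.59 CPM in HAMS alpha-like cells, so a low level there was not detectable.

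Abcc8 differed between the endocrine classes. In HAMSAB it was at 208.1 CPM in beta-like, 180.7 CPM in alpha-like and 306.0 CPM in delta-like cells, and in HAMS at 185.1 CPM in beta-like, 186.0 CPM in alpha-like and 337.9 CPM in delta-like cells. Beta-like cells held 0.680 times the delta-like level in HAMSAB (interval 0.517 to 0.902) and 0.548 times in HAMS (0.435 to 0.694). The sulfonylurea receptor gene was thus highest in delta-like cells of both libraries, while its beta-like and alpha-like levels did not differ beyond counting error.

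Kcnj11, the pore subunit of the same channel, was also highest in delta-like cells by value, but counting did not resolve the order. It was at 36.5 CPM in beta-like, 53.4 CPM in alpha-like and 67.6 CPM in delta-like cells of HAMSAB, and at 49.8 CPM in beta-like, 57.2 CPM in alpha-like and 68.8 CPM in delta-like cells of HAMS. Every pair of these levels with beta-like cells had a ratio interval that included 1.

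Cacna1d was at 93.7 CPM in beta-like, 135.5 CPM in alpha-like and 71.5 CPM in delta-like cells of HAMSAB, and at 102.7 CPM in beta-like, 111.6 CPM in alpha-like and 62.6 CPM in delta-like cells of HAMS. Of its beta-like ratios only that to delta-like cells of HAMS had an interval above 1, at 1.64 (1.02 to 2.77). Cacna1a was at 92.5 CPM in beta-like, 110.9 CPM in alpha-like and 107.3 CPM in delta-like cells of HAMSAB, and at 103.5 CPM in beta-like, 140.2 CPM in alpha-like and 109.5 CPM in delta-like cells of HAMS, with no beta-like ratio apart from 1 by its interval. The L-type and P/Q-type pore genes were thus general to these endocrine classes. Cacna1d, Cacna1a and Trpm5 each share an exon with a gene on the other strand (Chdh, Gm16183 and Tssc4), and since the strand setting of the counting is not given in the sources used here, reads of these pairs may have been mixed. Prlr shares exon sequence with the annotated gene Gm21973 on its own strand, which was not counted here.

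Cells rich in pancreatic polypeptide RNA (Ppy), which fell among the alpha-like cells, numbered 36 in each library when cells were classed by their own hormone UMIs. In them Slc2a2, Prlr, Glp1r, Trpm5 and Ucn3 had 0 UMIs in both libraries, which with the floor of 3 counts allows up to 104.7 CPM in HAMSAB and 116.3 CPM in HAMS. Cacna1a had 7 UMIs in HAMSAB and 5 UMIs in HAMS, Cacna1d 4 UMIs in HAMSAB and 3 UMIs in HAMS, and Abcc8 3 UMIs in HAMSAB and 5 UMIs in HAMS. Kcnj11 had 2 UMIs in HAMSAB and 0 UMIs in HAMS. These cells were too few to place a gene as low as Trpm5 or Kcnj11, since the beta-like levels of both lie under that limit.

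All 9 genes were at or near 0 in immune cells, which should mostly lack them, so that their UMIs there give a background that includes free RNA. In 1933 HAMSAB and 874 HAMS cells of the B, T, macrophage and plasma classes, with median depths of 716 UMIs in HAMSAB and 786 UMIs in HAMS, the highest level of any of the 9 genes was that of Cacna1d, at 7.88 CPM in HAMSAB and 8.996 CPM in HAMS. Ins2, the main insulin gene, was at 189.6 CPM in HAMSAB and 365.5 CPM in HAMS in the same cells. The share of cells with a Prlr UMI was 0.259% in HAMSAB and 0.458% in HAMS immune cells.

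Between the diets, Prlr and Slc2a2 RNA were higher and Trpm5 and Ucn3 RNA lower in HAMSAB than in HAMS beta-like cells, while Abcc8, Kcnj11, Cacna1d, Cacna1a and Glp1r did not differ beyond counting error. These calls are of counting intervals wholly above or below 0, which were common in this class: 14.9% of the 5118 genes with at least 50 UMIs in beta-like cells had one above 0 and 12% one below, against 2 and 2 of the 9 genes. None of the 9 genes was 2-fold apart. Among the same 5118 genes, 1.7% were higher in HAMSAB by 2-fold or more and 2.01% lower by as much. Of these 9 genes, 3 were above and 6 below a log2 ratio of 0, against 2723 above and 2395 below of the 5118 genes. The median log2 ratio was -0.13 for the 9 genes and 0.04 over all 5118 genes, so the ratios of the group lay on both sides of 0.

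**Figure D2:**
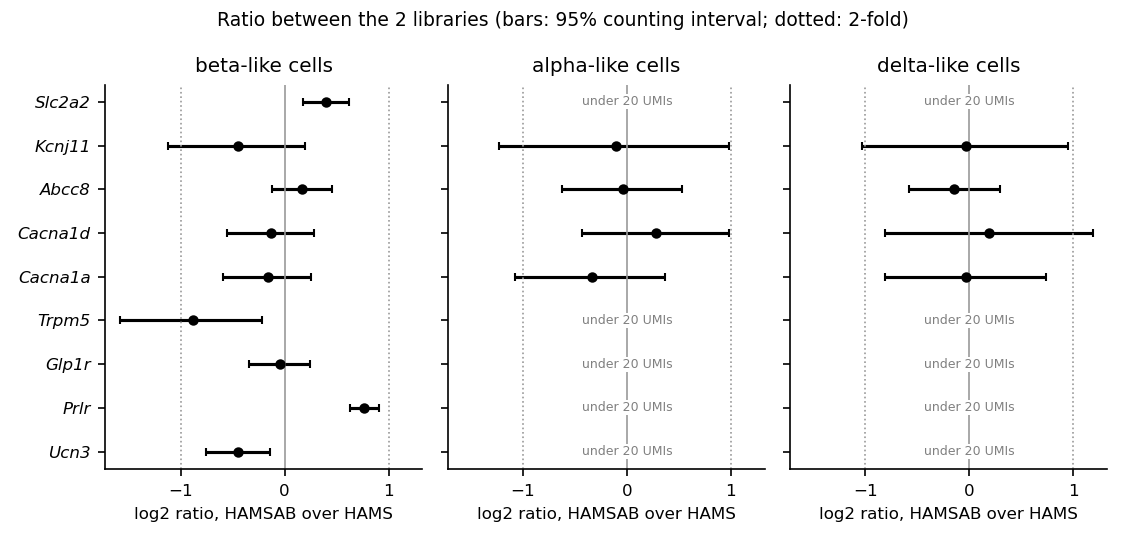
Log2 ratio of HAMSAB over HAMS for the 9 genes in each endocrine class, with exact 95% conditional binomial intervals for counting error. The solid line marks no difference and the dotted lines 2-fold, and genes with under 20 UMIs over both libraries have no point. In beta-like cells the bars of Slc2a2 and Prlr lie wholly right of 0 and those of Trpm5 and Ucn3 wholly left of it, and in both other classes every bar crosses 0.

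**Figure D3:**
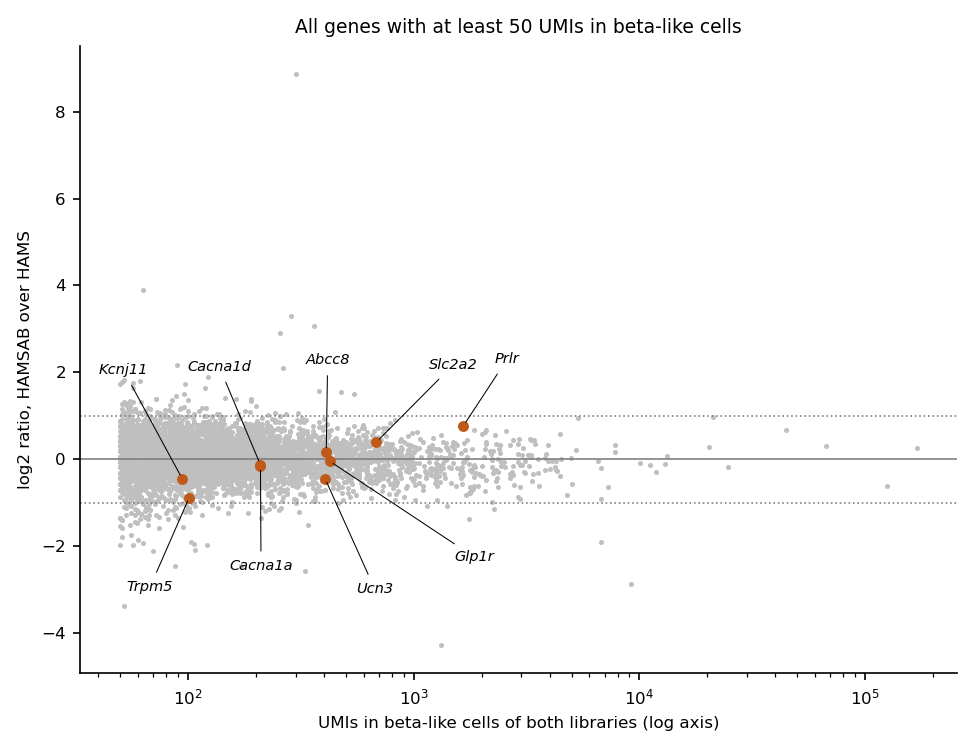
Log2 ratio of HAMSAB over HAMS against the UMIs in beta-like cells of both libraries (log axis) for the 5118 genes with at least 50 UMIs (grey), with the 9 genes in orange. Prlr lies near the upper edge of the genes of its count, Trpm5 near the lower edge, and all 9 lie between the dotted lines of a 2-fold difference.

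Prlr showed the largest difference of the 9 genes upwards. It was at 1051 CPM in HAMSAB and 617.6 CPM in HAMS beta-like cells, a log2 ratio of 0.77 (0.63 to 0.91) or 1.70-fold, above that of 95.2% of the genes measured in the class. Cells with at least 1 Prlr UMI made up 49.0% of HAMSAB beta-like cells (384 of 783, Clopper-Pearson interval 45.5 to 52.6%) and 29.8% of HAMS beta-like cells (455 of 1529, 27.5 to 32.1%). More of the HAMSAB cells were positive, and before thinning positive cells held more.

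Positive cells carried a mean of 2.25 Prlr UMIs in HAMSAB and 1.75 in HAMS, and 116 HAMSAB cells and 84 HAMS cells held 3 or more. Depth per cell differed, with a median of 852 UMIs in HAMSAB and 707 UMIs in HAMS beta-like cells. With each cell thinned to 500 UMIs, which left out 141 HAMSAB and 424 HAMS cells, the share with a Prlr UMI was 32.4% (28.8 to 36.2%) in HAMSAB and 22.4% (20.01 to 25.02%) in HAMS. The share was thus higher in HAMSAB among the cells kept at 500 UMIs too. Since thinning left out the shallower cells, equal depth and the choice of cells cannot be told apart. The thinned cells with a Prlr UMI, 208 in HAMSAB and 248 in HAMS, held 316 and 344 UMIs of it. Whether positive cells held more at equal depth was not tested. In the authors' deposited table for beta cells Prlr had a log2 fold change of 0.55, with 47.1% of HAMSAB and 31.6% of HAMS cells positive and an adjusted p of 2.27e-06, a value computed from cells and not across mice.

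Slc2a2 was higher in HAMSAB by a log2 ratio of 0.40 (0.17 to 0.62) or 1.32-fold, with 379.7 CPM in HAMSAB and 288.6 CPM in HAMS, above 80.1% of the genes measured. Unthinned, 28.1% of HAMSAB and 17.7% of HAMS beta-like cells held a UMI of it. At 500 UMIs per cell the shares were 19.5% (16.5 to 22.8%) in HAMSAB and 12.7% (10.8 to 14.8%) in HAMS. Glucose transporter RNA was thus counted in a larger share of HAMSAB beta-like cells, also among those kept at 500 UMIs. As for Prlr, thinning left out the shallower cells, so equal depth and the choice of cells cannot be told apart. In the authors' deposited table its log2 fold change was 0.33, with 26.8% of HAMSAB and 18.5% of HAMS cells positive and an adjusted p of 1. No other gene of the 9 was among the 115 genes of that table.

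Trpm5 was the lowest of the 9 in HAMSAB relative to HAMS, at 31.6 CPM in HAMSAB and 58.3 CPM in HAMS, a log2 ratio of -0.88 (-1.59 to -0.22), below all but 2.81% of the genes measured. It rests on 26 HAMSAB and 75 HAMS UMIs in 22 HAMSAB and 68 HAMS cells. At 500 UMIs per cell the shares of cells were 1.56% (0.75 to 2.85%) in HAMSAB and 2.44% (1.62 to 3.54%) in HAMS, which overlap. The direction was the same under all 11 alternative settings that could change it, with log2 ratios of -0.92 to -0.51.

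Ucn3 was at 157.0 CPM in HAMSAB and 213.9 CPM in HAMS, a log2 ratio of -0.45 (-0.76 to -0.14). In 13.5% of HAMSAB and 14.7% of HAMS beta-like cells it was detected. Its difference was near 0 in thinned cells: with cells thinned to 500 UMIs the log2 ratio was -0.08, and with cells thinned to 1000 UMIs, which kept 317 HAMSAB and 407 HAMS cells, it was 0.03. The cells thinned to 1000 UMIs held 39 Ucn3 UMIs in HAMSAB and 49 in HAMS. Thinning also left out the shallower cells, 141 in HAMSAB and 424 in HAMS at 500 UMIs, so equal depth and the choice of cells cannot be told apart here. The lower level in HAMSAB was thus not resolved in the thinned cells.

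Over the whole beta-like class, counting error covered the differences of the KATP and calcium channel genes and of the incretin receptor. Abcc8 had a log2 ratio of 0.17 (-0.12 to 0.46) and Kcnj11 one of -0.45 (-1.12 to 0.20), so the 2 subunits of the KATP channel had ratios of opposite sign whose intervals overlap. Cacna1d had a log2 ratio of -0.13 (-0.56 to 0.28) and Cacna1a one of -0.16 (-0.59 to 0.26). Glp1r had the smallest difference of the 9, at -0.05 (-0.34 to 0.24), with an interval of 0.790 to 1.18 on the scale of the fold.

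RNA of other islet cells also differed in beta-like cells. Their glucagon RNA (Gcg) was at 1193 CPM in HAMSAB and 4479 CPM in HAMS, and their somatostatin RNA (Sst) at 894.5 CPM in HAMSAB and 6546 CPM in HAMS. Without cells in which hormones of another class made up over 10% of UMIs, the log2 ratio was 0.73 for Prlr, 0.37 for Slc2a2, -0.45 for Ucn3 and -0.88 for Trpm5. The 4 differences thus kept their direction without those cells. Classed by their own hormone UMIs, 717 HAMSAB and 1196 HAMS cells were beta-like. There the log2 ratios of Prlr and Slc2a2, 0.61 and 0.29, were the lowest of 11 alternatives. Ucn3 was at 162.2 CPM in HAMSAB and 236.9 CPM in HAMS of these cells, and Trpm5 at 33.7 CPM in HAMSAB and 63.0 CPM in HAMS. Of 15 genes induced by cell isolation or stress 12 had a log2 ratio below 0, against 2395 of the 5118 genes with at least 50 UMIs. Fos was 1 of the 12, at 2081 CPM in HAMSAB and 3903 CPM in HAMS. The part of these stress genes in the result was not tested. Hormone RNA in the class total could also shift every ratio. With the islet hormones left out of the total the log2 ratios were 0.80 for Prlr, 0.43 for Slc2a2, -0.42 for Ucn3 and -0.85 for Trpm5.

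The beta-like class was made of 2 clusters, numbered 4 and 7, which the libraries filled unequally. Cluster 4, led by Ins2, Ogdhl and Ppp1r1a, held 26.6% of HAMSAB and 39.4% of HAMS beta-like cells, with median depths of 663.5 UMIs in HAMSAB and 671 UMIs in HAMS. Cluster 7, whose leading genes included Mafa, G6pc2, Prlr and Slc2a2 although the last pair took no part in the clustering, held 73.4% of HAMSAB and 60.6% of HAMS beta-like cells, with 934 UMIs in HAMSAB and 717 UMIs in HAMS.

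**Figure D4:**
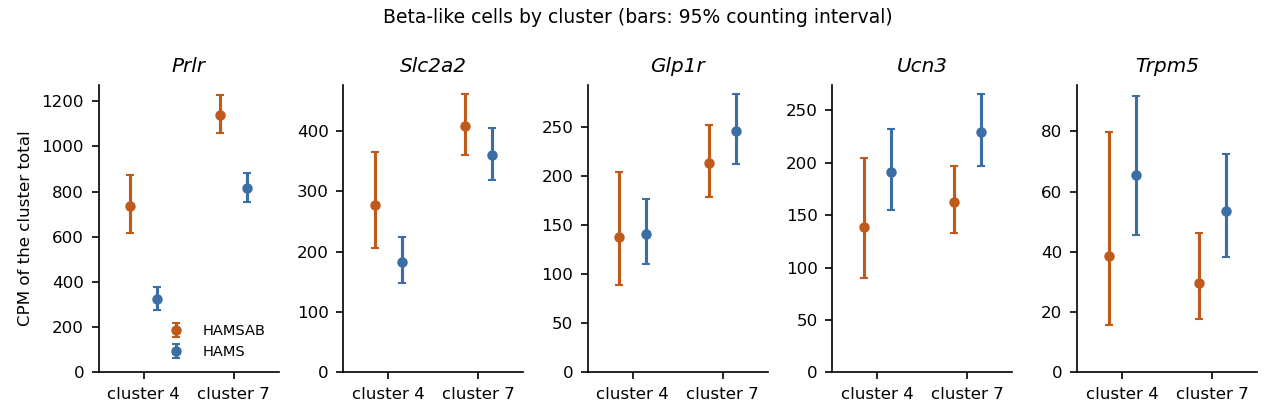
Level (CPM of all UMIs in the cluster, linear axes from 0) of 5 genes in the beta-like clusters 4 and 7 of HAMSAB (orange, left) and HAMS (blue, right), with exact 95% Poisson intervals for counting error. Prlr is higher in HAMSAB in both clusters without overlap of the bars, and Ucn3 and Trpm5 are lower in HAMSAB in both clusters, with overlapping bars for Trpm5 and, in cluster 4, for Ucn3.

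Within each cluster Prlr kept the direction seen in the whole class. In cluster 4 it was at 736.4 CPM in HAMSAB and 324.2 CPM in HAMS, a log2 ratio of 1.18 (0.84 to 1.52), and in cluster 7 at 1140 CPM in HAMSAB and 815.7 CPM in HAMS, a log2 ratio of 0.48 (0.33 to 0.64). The prolactin receptor difference was thus larger in cluster 4, with intervals that do not overlap. In 5 clusters of a finer clustering the log2 ratio of Prlr ran between 0.13 and 1.29, and in 1 of them the interval included 0 (-0.14 to 0.40).

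Slc2a2 had a log2 ratio of 0.59 (0.07 to 1.10) in cluster 4, with 276.8 CPM in HAMSAB and 183.3 CPM in HAMS. In cluster 7 it had one of 0.18 (-0.07 to 0.43), with 408.7 CPM in HAMSAB and 359.6 CPM in HAMS, a difference within counting error. The levels in cluster 7 were above those in cluster 4 in both libraries. The difference between the libraries was thus resolved in cluster 4 and not in cluster 7, with intervals of the 2 ratios that overlap. In the finer clustering its log2 ratio was below 0 in 2 of the 5 clusters, at -0.13 and -0.08, with intervals that included 0.

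Ucn3 had log2 ratios of -0.47 (-1.16 to 0.18) in cluster 4 and -0.50 (-0.86 to -0.14) in cluster 7. For Trpm5 they were -0.76 (-2.18 to 0.44) in cluster 4, on 7 HAMSAB and 34 HAMS UMIs, and -0.85 (-1.72 to -0.03) in cluster 7. Both genes had negative ratios in either cluster, with overlapping intervals. In the finer clustering Ucn3 had a log2 ratio of 0.13 (-0.58 to 0.81) in 1 of the 5 clusters and negative ones in the others, and Trpm5 ran between -2.19 and -0.04. The insulin genes did otherwise, with an Ins1 log2 ratio of -0.42 in cluster 4 and 0.73 in cluster 7, and an Ins2 log2 ratio of -0.42 in cluster 4 and 0.74 in cluster 7. Genes unresolved in the whole class had some intervals without 0 in the finer clustering. In 1 finer cluster Glp1r was at -0.62 (-1.03 to -0.21) and Cacna1d at -0.62 (-1.245 to -0.0006). In another, Abcc8 was at 0.63 (0.05 to 1.21). The intervals of these genes in the remaining finer clusters included 0.

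Outside beta-like cells, in the alpha-like and delta-like classes, only Abcc8, Kcnj11, Cacna1d and Cacna1a reached 20 UMIs over both libraries, and no difference between the diets was resolved. Of all genes with at least 50 UMIs, 6.73% had a counting interval wholly above 0 and 13.6% one below in alpha-like cells, and 10.2% one above and 5.7% one below in delta-like cells. The most deeply counted, Abcc8, was at 180.7 CPM in HAMSAB and 186.0 CPM in HAMS alpha-like cells, a log2 ratio of -0.04 (-0.63 to 0.53). In delta-like cells it was at 306.0 CPM in HAMSAB and 337.9 CPM in HAMS, a log2 ratio of -0.14 (-0.58 to 0.29). The remaining ratios in these classes lay between -0.34, for Cacna1a in alpha-like cells, and 0.28, for Cacna1d in alpha-like cells. Among 1814 genes measured in alpha-like cells 1.32% were higher in HAMSAB by 2-fold or more and 1.82% lower, and among 1789 in delta-like cells 1.45% were higher and 0.894% lower, with none of the 4 genes past 2-fold in either class. The authors' deposited tables for alpha and delta cells list 0 of the 9 genes.

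Other genes of the same steps were read from lists chosen for their roles, in beta-like cells, for members with at least 20 UMIs. For scale, of the 5118 genes with at least 50 UMIs in this class 2723 had a log2 ratio above 0 and 2395 one below. Whether any list departed from that share was not tested. Of the lists plotted only that of other KATP subunits and regulators, with 2 measured members, both regulators, lay wholly on one side of 0.

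**Figure D5:**
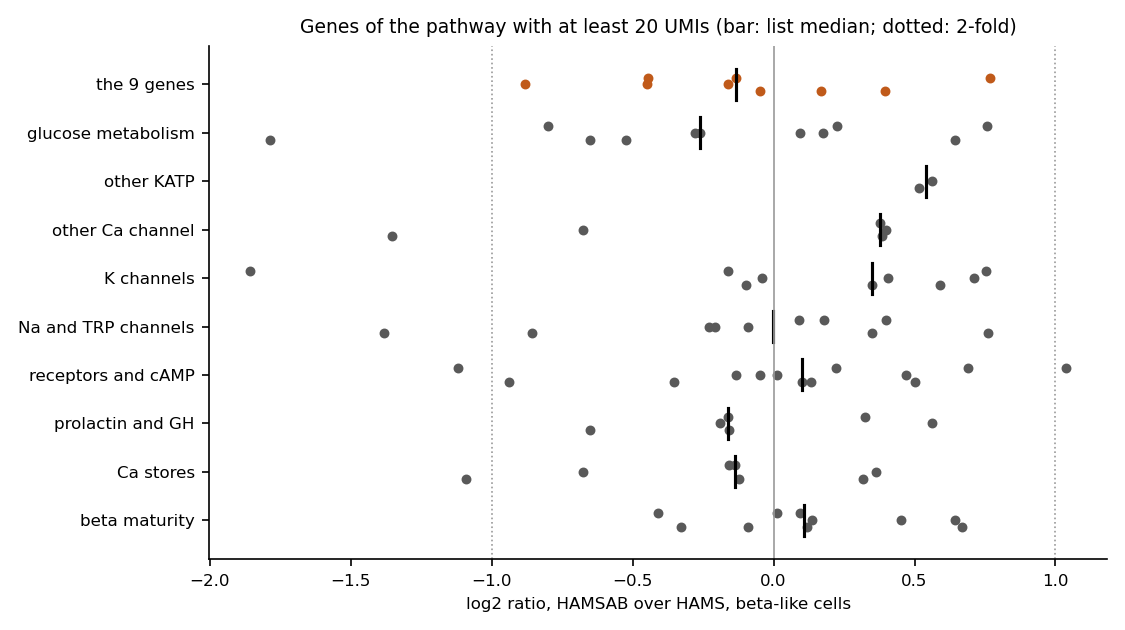
Log2 ratio of HAMSAB over HAMS in beta-like cells for the 9 genes (orange) and for other genes of the pathway by list (grey), each point 1 gene with at least 20 UMIs over both libraries, vertical offsets only separating points. Bars mark list medians, which lie between -0.26 for glucose metabolism and 0.54 for the 2 genes labelled other KATP, both regulators and not channel subunits. Dotted lines mark 2-fold.

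Of the genes that couple glucose metabolism to ATP, 5 of 11 measured were above 0 and 6 below, with a median log2 ratio of -0.26. G6pc2, a glucose-6-phosphatase of beta cells, was at 1552 CPM in HAMSAB and 992.6 CPM in HAMS, a log2 ratio of 0.64 (0.53 to 0.76). Mpc2, a subunit of the mitochondrial pyruvate carrier, had a log2 ratio of 0.76 (0.17 to 1.34), and the phosphofructokinase gene Pfkl one of -0.80 (-1.58 to -0.08). The list thus held genes with intervals on either side of 0.

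Among the other KATP subunits and regulators, 2 of 4 genes were measured, both of them regulators. The other subunit genes were not measured, with Kcnj8 at 0 UMIs in both libraries and Abcc9 at 1 UMI in HAMSAB and 0 UMIs in HAMS. Of the regulators, Pias1 had a log2 ratio of 0.52 (-0.11 to 1.145). Rapgef4, a cAMP sensor that binds the sulfonylurea receptor, had a log2 ratio of 0.56 (-0.03 to 1.15). Among the other calcium channel subunits 5 of 13 were measured, 3 above 0 and 2 below. The auxiliary subunit genes Cacna2d1 and Cacnb2 had log2 ratios of 0.38 (-0.04 to 0.79) and 0.39 (-0.07 to 0.84), none resolved from 0. For the pore subunits and their partners alike, counting error was as large as the differences.

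Of the potassium channels 5 of 9 measured genes were above 0. Kcnk16, which encodes the beta cell leak channel TALK-1, was at 155.8 CPM in HAMSAB and 117.5 CPM in HAMS, a log2 ratio of 0.41 (0.06 to 0.76). Among the sodium, TRP and other depolarising channels, 5 of 10 were above 0 and 5 below. The ratios of these channel genes, like those of the potassium channels, thus lay on both sides of 0.

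For receptors and cAMP signalling, 8 of 13 measured genes were above 0, with a median of 0.10. The fatty acid receptor gene Ffar1 was at 115.6 CPM in HAMSAB and 81.7 CPM in HAMS, a log2 ratio of 0.50 (0.09 to 0.92). Gnas, the stimulatory G protein through which GLP-1R signals, had a log2 ratio of -0.13 (-0.24 to -0.03), which was 0.08 when cells were classed by their own hormone UMIs. Gipr, the other incretin receptor, had 7 HAMSAB and 21 HAMS UMIs and a log2 ratio of -0.94 (-2.42 to 0.35).

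The prolactin signalling genes had no common direction. Of 6 measured genes of prolactin and growth hormone signalling, 2 were above 0 and 4 below, with a median log2 ratio of -0.16. Ghr, the growth hormone receptor, was the one with an interval above 0, at 248.3 CPM in HAMSAB and 168.0 CPM in HAMS, a log2 ratio of 0.56 (0.28 to 0.85). The STAT5 targets Socs2 and Cish had log2 ratios of -0.16 (-0.58 to 0.25) and -0.65 (-1.81 to 0.41), and Jak2 one of -0.16 (-0.95 to 0.60). The growth hormone receptor gene was thus higher in HAMSAB, as was Prlr, while the kinase and target genes named here were not resolved from 0.

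Of 7 measured genes of the calcium stores, 2 were above 0. These were the pumps that load the endoplasmic reticulum, Atp2a2 at 1441 CPM in HAMSAB and 1155 CPM in HAMS, a log2 ratio of 0.32 (0.21 to 0.43), and Atp2a3 at 838.5 CPM in HAMSAB and 651.8 CPM in HAMS, a log2 ratio of 0.36 (0.22 to 0.51). The release channel gene Itpr1 had 15 HAMSAB and 50 HAMS UMIs and a log2 ratio of -1.09 (-2.03 to -0.24).

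Among genes of beta cell maturity, 7 of 10 measured were above 0. Ero1b, an oxidase of the endoplasmic reticulum used in insulin folding and listed in the files as Ero1lb, had a log2 ratio of 0.67 (0.54 to 0.80). The transcription factor gene Nkx6-1 had one of -0.41 (-0.63 to -0.20), which like that of Ucn3 was above 0, at 0.24, in cells thinned to 1000 UMIs. Mafa, another such factor, had a log2 ratio of 0.12 (0.01 to 0.23). Ucn3, often read as a maturity marker, thus had a ratio of the same sign as Nkx6-1 and of the opposite sign to Ero1b and G6pc2. Of genes that mature beta cells normally keep silent, 2 of 6 were measured, and Ldha, a lactate dehydrogenase, had a log2 ratio of 0.06 (-0.75 to 0.85).

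The genes most like each of the 9 were sought over 16 points, 8 classes in 2 libraries, among 4663 genes, by Pearson's r of log2 CPM. The points share their libraries and class totals and include both beta-like groups, so r already holds the difference between the diets and is only a description. For Slc2a2 the most alike gene was Prlr (r = 0.919), followed by G6pc2 (r = 0.910), and for Prlr it was G6pc2 (r = 0.965), followed by Ins2 (r = 0.948). For Trpm5 they were Tmem215 (r = 0.957), Ucn3 (r = 0.952) and Mafa (r = 0.931), and for Ucn3 Sytl4 (r = 0.981), the granuphilin gene, Ins2 (r = 0.969) and Mafa (r = 0.965). In beta-like cells the log2 ratio was -0.33 for Sytl4, -0.04 for Tmem215, 0.12 for Mafa and 0.26 for Ins2, so the nearest genes of Trpm5 and Ucn3 lay on both sides of 0.

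Glp1r was most like Vstm2l (r = 0.978) and Pcsk1 (r = 0.960), the prohormone convertase of proinsulin processing. Scgn was among the genes most like Abcc8 (r = 0.985). Kcnj11 was most like Nol4 (r = 0.998), Cacna1a most like Gnao1 (r = 0.988), and Cacna1d most like Braf (r = 0.973) and Cacna1a (r = 0.962). Scgn encodes the calcium-binding protein secretagogin and Gnao1 an inhibitory G protein subunit.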

How the data were processed

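The deposited files are 2 matrices of raw UMI counts per gene and barcode, written by Cell Ranger 5.0.0 per the file headers, from a 3′ Chromium kit per the labels. The submitters' processing notes name mm10, GRCm38 and Seurat. The settings of cell calling, annotation and strand were not given in the sources used here. Comparison tables deposited by the authors hold log2 fold changes, p-values and the fraction of cells with the gene, computed over cells by a test not given there.

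Cells were kept if they had 200 genes or more and no more than 20% mitochondrial UMIs. No doublet caller was run and all kept cells stayed in. Cells were clustered with scanpy 1.11.5 (2000 variable genes without the 9 genes, 30 components, 15 neighbours, Leiden resolution 1 in igraph 0.11.9), and clusters were named from marker lists. A cluster of 1042 HAMSAB and 771 HAMS immune cells stayed unnamed, and cells with Ppy RNA fell among alpha-like cells. UMIs were summed per class and library and divided by the class total (CPM), with exact Poisson intervals, exact conditional binomial intervals for ratios and Clopper-Pearson intervals for shares, all at 95% and for counting error only. A gene needed 20 UMIs over both libraries for a ratio and 50 to count in the background. A count of 0 was given a floor of 3. Likeness added 10 CPM before the log and used genes with at least 200 UMIs. The ratio calculation was tested on simulated data. The 9 genes, the lists and the rule for named genes (per list, among genes with at least 50 UMIs in beta-like cells, up to 2 highest and 2 lowest by the interval bound nearest 0, of which the text gives some) were chosen with earlier results of these data known. Gipr, Cish, Jak2 and Mafa were named besides, after their values were seen, and some genes that the rule names are not reported here.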

Additional observations from a re-analysis of the deposited data

How the results depend on the processing

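No paired analysis was possible because each diet had 1 library. In beta-like cells Prlr (log2 ratio 0.61 to 0.84), Slc2a2 (0.29 to 0.59), Trpm5 (-0.92 to -0.51), Abcc8 (0.01 to 0.36) and Kcnj11 (-0.65 to -0.20) kept their sign under the 11 alternatives that could change a ratio, which covered filters, clustering, class rules, scaling and thinning. Ucn3 (-0.55 to 0.03), Glp1r (-0.23 to 0.13), Cacna1d (-0.37 to 0.12) and Cacna1a (-0.52 to 0.26) did not. In cluster 4 alone Abcc8 was at -0.25 and Cacna1d at 0.47. The median over the 9 genes stayed within the counting interval of its middle gene, Cacna1d (-0.56 to 0.28). That interval is the counting error of 1 gene, and no spread of the median was computed. The median was 0.01 in cells with at least 500 genes and 0.02 in cells thinned to 1000 UMIs. The same 5 genes were highest in beta-like cells of both libraries under all 9 alternatives that changed levels.

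The numbers of genes 2-fold apart moved with the number that reached 50 UMIs, which was 5118 in beta-like cells, 2636 with those cells thinned to 500 UMIs and 2202 with them thinned to 1000. As shares of these, 1.7%, 1.21% and 2.27% were higher and 2.01%, 1.86% and 2.59% lower. Against 87 higher and 103 lower in HAMSAB in beta-like, 24 and 33 in alpha-like and 26 and 16 in delta-like cells, thinning to 500 UMIs gave 32 and 49, 8 and 18, and 6 and 6. Thinning to 1000 UMIs gave 50 and 57 in beta-like, 11 and 12 in alpha-like and 10 higher in delta-like cells. No minimum on UMIs gave 1401 and 1102, 1316 and 1405, and 1408 and 1107. In delta-like cells 15 were higher with at least 500 genes per cell and 16 under median ratio scaling, and 26 were lower with each cell weighted equally. Classes from hormone UMIs gave 68 lower in beta-like and 52 lower in alpha-like cells, and cluster 7 alone, chosen after seeing the data as was cluster 4 alone, gave 46 higher.

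Among ratios whose counting interval excluded 0, the sign was reversed, with at least 500 genes per cell, for Hsp90aa1 in beta-like (-0.019), Atp2a2 in alpha-like (-0.059) and Ins2 in delta-like cells (0.28). With classes from hormone UMIs it was reversed for Gnas (0.082) and Pyy (0.22) in beta-like and Ppy in alpha-like cells (-1.88). In cells thinned to 1000 UMIs it was reversed for Ucn3 (0.031) and Nkx6-1 (0.24) in beta-like, and Cacna2d1 (-0.51) and Hsp90aa1 (-0.015) in delta-like cells. In cluster 7 alone it was reversed for Hsp90aa1 (-0.062), and in cluster 4 alone for Kcnip1 (-0.064), Ins1 (-0.42) and Ins2 (-0.42). The cause was not tested.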

Other observations

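Outside the endocrine classes Slc2a2 was counted in ductal-like cells of the HAMSAB library, with 12 UMIs in 11 of 180 cells (67.4 CPM, interval 34.8 to 117.7), against 0 UMIs in 71 ductal-like cells of the HAMS library, where a count of 0 allows up to 39.9 CPM. In those 11 cells the insulin genes Ins1 and Ins2 made up 7 of 12116 UMIs. Prlr had 4 UMIs, all in 1 ductal-like cell, in HAMSAB and 2 UMIs in 2 cells in HAMS. The other ductal-like levels of the 9 genes rested on 4 UMIs or fewer per library.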
